A study of Mus musculus with 8 samples.

Results

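Lars2 and Mthfd2l are nuclear genes for mitochondrial enzymes, and both had several Klf6 ChIP-seq peaks listed under their symbol. The members are the 11 peaks, 5 at Lars2 and 6 at Mthfd2l, that the deposited lists assign to these genes at any listed distance, out of 7855 peaks assigned to 3888 genes and 36280 peaks in all. The genes were chosen by these same listed peaks, so the number, position, tags, length and replicate support of the peaks are given as a description, with no test. Klf6 was precipitated with a rabbit polyclonal antibody from primary C57BL/6 mouse cultures of 2 stages, with 2 biological replicates (A and B) of each. Oligodendrocyte progenitors (OLP) were left without triiodothyronine (T3). Immature oligodendrocytes (iOL) were obtained from OLP by an 18 h exposure to T3, used at 40 ng/ml. PDGF-AA at 10 ng/ml and bFGF at 20 ng/ml are recorded for the samples of both stages, so T3 is the recorded difference between them. Matching input chromatin was sequenced for each of the 4 ChIP samples and has no list of its own here. The OLP came from mice at postnatal day 6 to 7. A list of peaks holds no marker with which the labelled cell type could be checked. RNA-seq values are not analysed here.

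Lars2 encodes the mitochondrial leucyl-tRNA synthetase, the enzyme that charges the leucine tRNAs used by mitochondrial ribosomes. Mthfd2l encodes a mitochondrial methylenetetrahydrofolate dehydrogenase and cyclohydrolase, which carries out steps of the folate pathway that passes one-carbon units toward formate. Klf6 is a zinc-finger transcription factor of the Krüppel-like family, whose members are known to bind GC-rich and CACCC-type elements.

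The sequences under the peaks carry most of what the lists hold on these genes, and those of Lars2 and Mthfd2l looked unlike each other. They are printed 5′ to 3′ on the plus strand, on which both genes lie, as read from the mm9 genome (NCBIM37). Capitals mark bases inside at least 1 stretch of 32 bases that occurs once in the genome, counting both strands, and lower case marks bases found only in stretches that occur elsewhere as well. At Lars2, the upstream peak of OLP A at -13166 bp (chr9:123262838-123262981) and the peak of OLP B at -12947 bp (chr9:123263067-123263216) are shown because they stand for the site at which both OLP replicates had a peak, and the peak of OLP A in intron 7 (chr9:123326719-123326789) because it shows the same kind of sequence inside the gene.
Lars2 OLP A upstream: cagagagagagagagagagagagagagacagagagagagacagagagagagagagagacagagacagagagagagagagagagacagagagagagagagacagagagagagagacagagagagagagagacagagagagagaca
Lars2 OLP B upstream: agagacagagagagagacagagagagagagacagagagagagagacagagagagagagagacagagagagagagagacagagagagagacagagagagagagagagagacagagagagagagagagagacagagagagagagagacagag
Lars2 OLP A intron: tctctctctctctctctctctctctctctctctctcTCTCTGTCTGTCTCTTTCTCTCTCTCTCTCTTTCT

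At Mthfd2l, the peaks of OLP A at -10885 bp (chr5:91349227-91349383) and -4393 bp (chr5:91355714-91355876), that of iOL A nearest to the start at -2925 bp (chr5:91357206-91357348) and that of iOL B at -22000 bp (chr5:91338151-91338324) are shown because no other peaks were listed under this gene in OLP A and iOL B, and because the last is the only one of the 6 with any base in capitals.
Mthfd2l OLP A far: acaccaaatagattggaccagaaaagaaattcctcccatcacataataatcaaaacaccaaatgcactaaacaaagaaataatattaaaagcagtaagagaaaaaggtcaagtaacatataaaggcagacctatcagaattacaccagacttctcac
Mthfd2l OLP A near: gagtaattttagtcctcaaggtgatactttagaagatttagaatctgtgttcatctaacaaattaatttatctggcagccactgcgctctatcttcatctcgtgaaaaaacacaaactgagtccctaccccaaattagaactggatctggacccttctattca
Mthfd2l iOL A nearest: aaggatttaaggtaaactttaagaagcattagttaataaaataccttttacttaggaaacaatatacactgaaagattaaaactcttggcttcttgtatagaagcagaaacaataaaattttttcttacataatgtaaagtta
Mthfd2l iOL B: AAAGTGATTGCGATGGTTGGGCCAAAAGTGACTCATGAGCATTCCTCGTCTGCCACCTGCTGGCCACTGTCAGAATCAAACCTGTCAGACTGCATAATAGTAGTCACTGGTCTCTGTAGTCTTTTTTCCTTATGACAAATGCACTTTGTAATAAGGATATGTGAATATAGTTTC
The Lars2 sequences upstream of the gene are runs of GA broken by single C bases, and the intron sequence is a run of CT broken by a few other bases. Those at Mthfd2l are mixed sequence with no such pattern.

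The lists held 12451 peaks in OLP A, 7827 in OLP B, 10225 in iOL A and 5777 in iOL B. A tag is a sequenced fragment, and the median peak had 8 tags in the A replicate of each stage, 12 in the OLP B sample and 13 in the iOL B sample. The MACS score of a peak is minus 10 times the log10 of its p, and the lowest score in each list was between 40.0 and 40.01. The fold enrichment is the observed number of tags divided by the number MACS expects there. Tags were not normalized between samples, so heights are read within a sample only. Where a list has no peak, binding below the calling limit remains possible.

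At Lars2, all 5 listed peaks lay in a single stretch of 464 bp upstream of the gene (chr9:123262837-123263300), between -13166 and -12798 bp from the start that the lists use. OLP A had 2 peaks there, of 7 tags each, OLP B had 1 of 12 tags, iOL A had 2, of 9 and 8 tags, and iOL B had 0. Both OLP replicates and iOL A thus had a peak at this site, and iOL B alone did not. The peaks of OLP A and iOL A there, of 7 to 9 tags, held fewer tags than the smallest peak of the iOL B list, of 10. The part of these unequal limits in the lack of an iOL B peak was not tested. The start used by the lists lies 2 bp before the start of Lars2-201, the only transcript of the gene in the reference annotation, and the site overlaps no part of that transcript.

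Within the site the peaks fell into an outer and an inner pair. The outer peak of OLP A at -13166 bp, of 144 bp, lay wholly inside the outer peak of iOL A at -13105 bp, with an overlap of 144 bp and summits 61 bp apart. The inner peak of OLP A at -12856 bp shared 107 bp with the inner peak of iOL A at -12798 bp, and their summits were 58 bp apart. The only peak of OLP B, at -12947 bp, shared 133 bp with the inner peak of OLP A and 80 bp with that of iOL A. It missed the outer peak of OLP A by 85 bp and that of iOL A by 71 bp. The 2 peaks of a sample were separated by 102 bp in OLP A and 141 bp in iOL A.

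The upstream Lars2 peaks had low to middling scores within their lists. In OLP A their scores were 47.61 (fold enrichment 12.15, MACS p of 1.7e-05) and 44.4 (9.72-fold, p of 3.6e-05), with 26.85% and 12.34% of the peaks of that sample below them. In OLP B the score was 53.3 (6.76-fold, p of 4.7e-06), with 55.81% of peaks below it and an FDR of 0.46%. In iOL A the scores were 63.54 (12.41-fold, p of 4.4e-07) and 53.08 (9.92-fold, p of 4.9e-06), with 60.56% and 40.66% of peaks below them. The plot of scores shows these peaks within the dense part of the 3 lists that hold them.

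**Figure D1:**
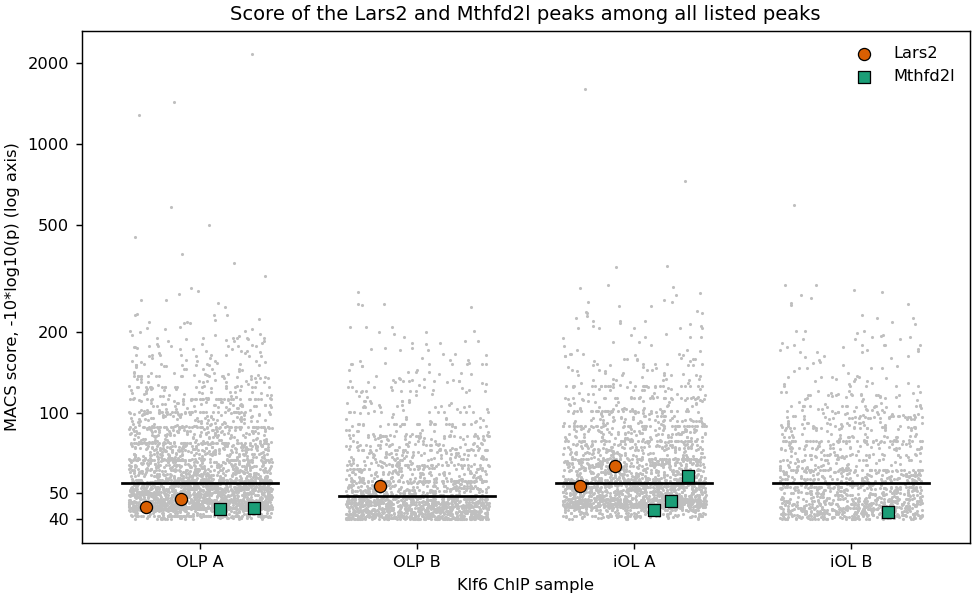
MACS score, minus 10 times the log10 of p, of the listed Lars2 peaks (orange circles) and Mthfd2l peaks (green squares) among all 7855 listed peaks (grey points), by Klf6 ChIP sample, on a log axis; black lines are medians of the listed peaks. The 11 peaks lie between 42.47 and 63.54, and none reaches 100.

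Inside the Lars2 gene, which spans 95.7 kb with 21 exons (chr9:123276058-123371782), 3 peaks were found by coordinates, none of them listed under Lars2. OLP A had a peak of 7 tags and 71 bp in intron 7, 50.7 kb downstream of the start, with a score of 88.6 and a fold enrichment of 17.02, and it has no gene in the list because it lies past the 5 kb that the lists cover downstream of a start. OLP A also had a peak of 93 tags and 386 bp in exon 21 (chr9:123370916-123371301), and iOL B had one of 150 tags and 391 bp at the same place (chr9:123370918-123371308), while OLP B and iOL A had 0 peaks in the gene. Both lists give these last peaks to Limd1, the next gene downstream, at -16692 and -16694 bp from its start.

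The exon 21 peaks lay in the 3′ UTR of Lars2, which runs from 123370794 to 123371782, and began 122 and 124 bp after its first base. In OLP A, the sample with peaks at both places, the exon 21 peak stood apart from the upstream peaks in height. It had 24.09 tags per 100 bp, against 4.86 and 4.38 at the upstream site. The iOL B peak had 38.36 tags per 100 bp, with no upstream peak of that sample to set beside it. With 93 and 150 tags the exon 21 peaks held more tags than 99.37% of the peaks of OLP A and 99.5% of those of iOL B. Their fold enrichment was nevertheless low, 5.67 in OLP A and 4.51 in iOL B, with 1.69% and 0.8% of peaks below them. By score they ranked high, at 101.17 in OLP A and 90.54 in iOL B, with 87.68% and 79.52% of peaks below them. Of their stretches of 32 bases, 63.38% and 62.5% occur more than once in the genome, at most 8 times. A BLAST search (E value at most 1e-10) gave 35 other alignments for each sequence, which can fall at fewer places. None of them covered 90% of its length at 95% identity. As background, the 3′ UTR of mouse Lars2 is known to hold sequence like that of the large ribosomal RNA, though no ribosomal RNA sequence was compared here. The part of repeated sequence in these tags was not tested.

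**Figure D2:**
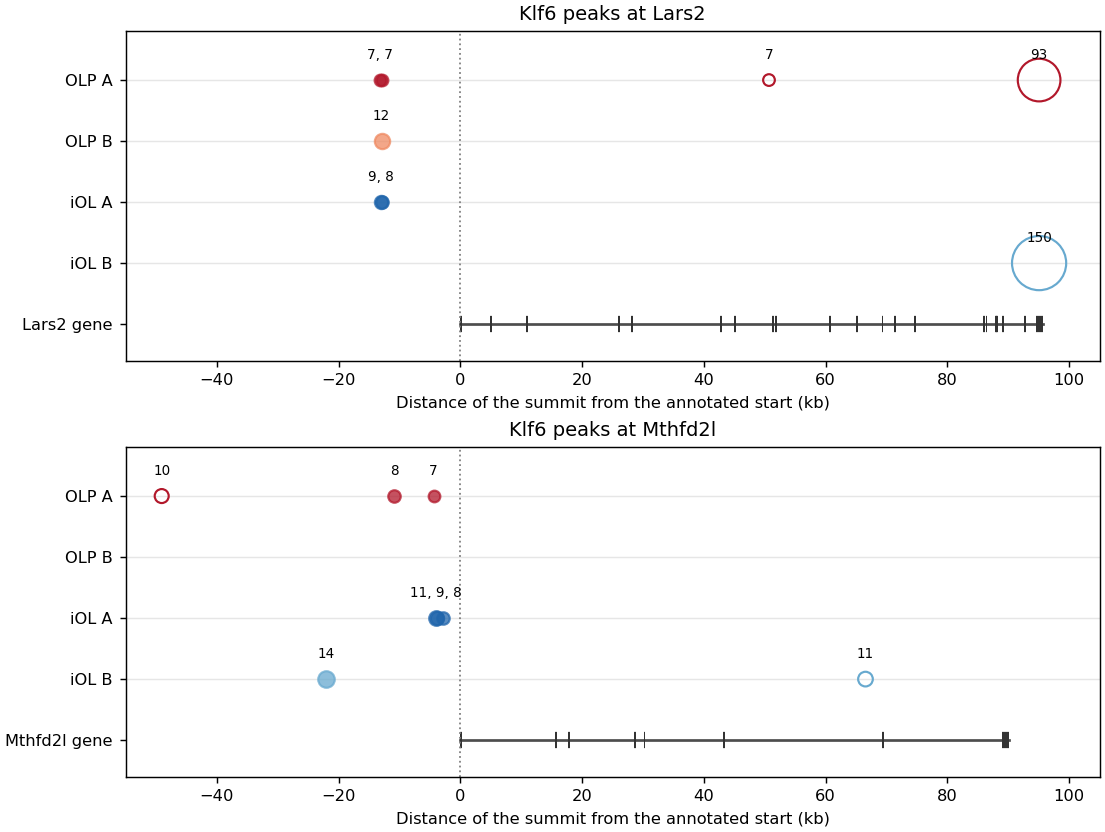
Klf6 peaks at Lars2 (top) and Mthfd2l (bottom) in the 4 ChIP samples, by distance of the summit from the annotated start in kb. Circle area and numbers give tags, filled circles are peaks listed under the gene, open circles peaks listed under another gene or none, and the dark line with blocks is the gene with its exons. Lars2 has its listed peaks at a single place upstream in 3 samples. The tall peaks of 93 and 150 tags at its end are listed under Limd1. The listed peaks of Mthfd2l are spread from -22.0 to -2.9 kb.

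For its length, the Lars2 gene body would hold 0.307 peaks in OLP A, 0.204 in OLP B, 0.254 in iOL A and 0.134 in iOL B at the density of peaks on chromosome 9 as a whole. It held 2, 0, 0 and 1. The peaks in and around Lars2 were thus found at 3 places. OLP A had peaks at each of the 3, OLP B and iOL A at the upstream site alone, and iOL B at the 3′ UTR alone. The start of the gene itself had 0 peaks within 2 kb in every sample.

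At Mthfd2l, the 6 listed peaks formed 4 sites when peaks at most 500 bp apart were joined, all upstream of the gene. OLP A had 2 peaks, at -10885 bp (8 tags) and -4393 bp (7 tags), OLP B had 0, iOL A had 3, at -4055 bp (11 tags), -3822 bp (9 tags) and -2925 bp (8 tags), and iOL B had 1, at -22000 bp (14 tags). No site held both replicates of a stage. A single site, from -4393 to -3822 bp (chr5:91355714-91356524), held peaks of 2 samples, OLP A and iOL A. Even there the intervals did not touch. The OLP A peak was separated by 184 bp from the nearest iOL A peak, and their summits were 338 bp apart.

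The scores of the Mthfd2l peaks were lower than most of their lists in all but 1 case. In OLP A they were 44.28 (9.15-fold, MACS p of 3.7e-05) at -10885 bp and 43.84 (9.72-fold, p of 4.1e-05) at -4393 bp, with 11.19% and 6.64% of peaks below them. In iOL A the peaks at -4055 and -3822 bp scored 46.85 (8.6-fold) and 43.34 (9.39-fold), with 21.78% and 4.83% of peaks below them. The exception was the iOL A peak at -2925 bp, of 143 bp, which scored 57.84 (17.37-fold, p of 1.6e-06), above 53.19% of that list. The iOL B peak at -22000 bp scored 42.47 (6.09-fold, p of 5.7e-05), above 9.8% of its list, with an FDR of 3.88%. Of the 6 peaks, 5 scored under 50, against 2 of the 5 at Lars2, which are calls of 1 site. The median score of all listed peaks was near that limit, from 48.75 in OLP B to 54.84 in iOL B. The share of listed peaks under 50 is not given here, and the counts of the genes were not tested.

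Peaks are listed under a gene down to -50 kb and up to 5 kb past its start. Just inside it, OLP A had a peak of 10 tags at -49061 bp from Mthfd2l (chr5:91311042-91311201), which the list gives to Cxcl1, a chemokine gene whose start is nearer (-9110 bp), so it is no member. Beyond it, the next peak upstream was 103.1 kb from the Mthfd2l start. Inside the Mthfd2l gene, which spans 90.2 kb with 8 exons (chr5:91360222-91450386), a single peak was found, in intron 6 in iOL B (chr5:91426676-91426815). It had 11 tags, a score of 48.21 and a fold enrichment of 9.51, and it is listed under Epgn, the epidermal growth factor family gene that follows. At the density of peaks on chromosome 5, a stretch of this length would hold 0.427 peaks in OLP A, 0.259 in OLP B, 0.346 in iOL A and 0.184 in iOL B. The start of Mthfd2l had 0 peaks within 2 kb in every sample, and the peak nearest to it in OLP B was the one 103.1 kb away.

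Repeated sequence was read at each peak as the share of its stretches of 32 bases with at least 1 further occurrence in the genome, counting both strands. At Lars2 that share was 100% in all 5 listed peaks. At Mthfd2l it was 100% in 5 of the 6 and 0% in the iOL B peak at -22000 bp. A share over 50% was found in 82.0% of all listed peaks, so that the 10 of 11 peaks found here are near that background. The repeated stretches of the Lars2 peaks occurred up to 3764 times, and those of the Mthfd2l peaks up to 1231 times at -10885 bp and between 168 and 298 times at the peaks from -4393 to -2925 bp. How the authors placed reads that match several places is not given in the sources used here, and its part in these peaks was not tested.

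The repeated sequence around the peaks was laid out differently at the genes. Upstream of Lars2, 11.5% of the 50 kb before the start was repeated, and the peaks lay on a short island of it, of 400 bp in bins of 100 bp, from -13200 to -12801 bp. The summit of the iOL A peak at -12798 bp fell in the next bin, of which 48% was repeated. Upstream of Mthfd2l, 30.3% of the 50 kb was repeated. The 4 peaks from -4393 to -2925 bp all lay in an unbroken run of repeated bins of 5500 bp, which ended at -801 bp from the start of the gene. The peak at -10885 bp lay in another run of 500 bp, and the intron 6 peak of iOL B in a run of 6100 bp. The plot of repeated stretches shows the peaks on these runs.

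**Figure D3:**
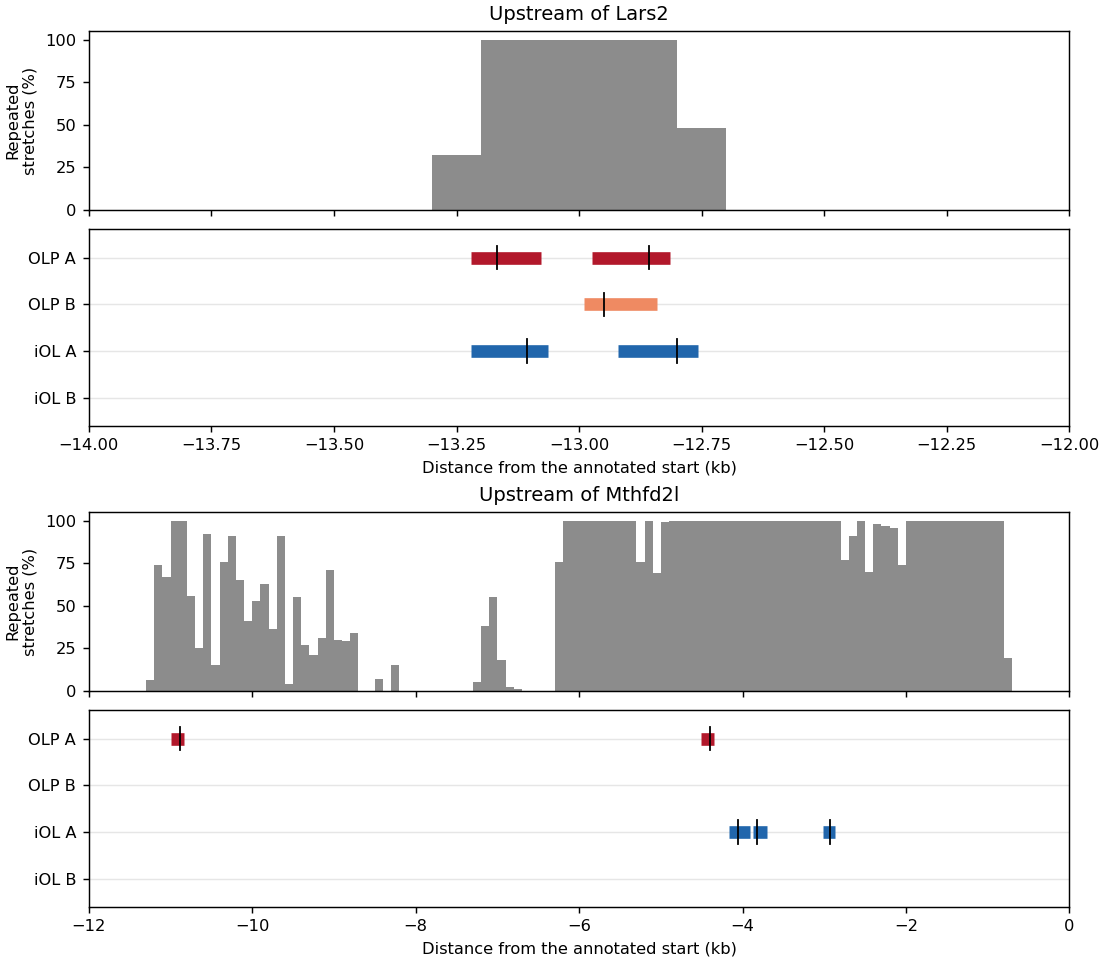
Share of stretches of 32 bases that occur more than once in the genome, in percent per bin of 100 bp (grey bars), above the listed peaks of the 4 samples (coloured bars, with summits as black ticks), by distance from the annotated start in kb upstream of Lars2 and of Mthfd2l. The Lars2 peaks cover a repeated island of 400 bp, and 4 of the Mthfd2l peaks lie in a repeated run of 5500 bp; the iOL B peak at -22000 bp is outside the plotted range.

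The Lars2 repeats were of a kind that few peaks share. Between 86.49% and 87.65% of the bases of the 5 listed Lars2 peaks equal the base 2 positions further on, as in a dinucleotide repeat, and 93.06% to 93.9% of their bases are A or G on the plus strand. In the Mthfd2l peaks the first share was 24.29% to 33.55%, close to the median of 29.22% over all listed peaks. A share of at least 80% was found in 0.611% of listed peaks, that is in 48 peaks at 41 genes. Of these 48, 19 were in OLP A, 1 in OLP B, 25 in iOL A and 3 in iOL B, and the 1 in OLP B is the Lars2 peak. Lars2 had 5 of them, 3 other genes had 2 each and 37 had 1. The 5 at Lars2 are calls of a single site in 3 samples, so they are not 5 separate repeats. The intron 7 peak of OLP A, which is not listed under a gene, had a share of 88.41% with 2.82% A or G, the complementary CT repeat. The plot of base composition sets the Lars2 peaks apart from the cloud of listed peaks.

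**Figure D4:**
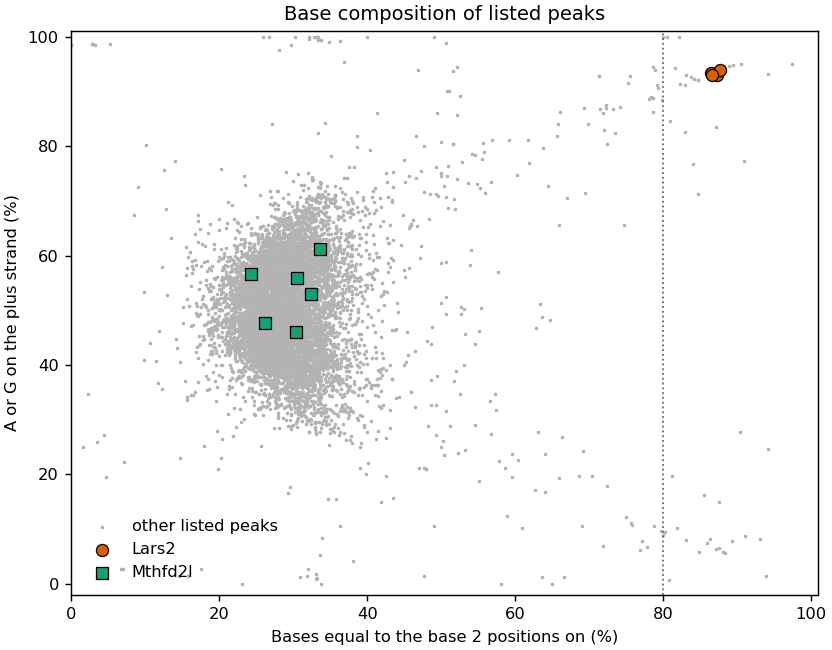
Share of bases equal to the base 2 positions on (x axis, percent) against the share of A or G on the plus strand (y axis, percent) for the 7855 listed peaks of the 4 samples, with the Lars2 peaks as orange circles, the Mthfd2l peaks as green squares and the limit of 80% as a dotted line. The Lars2 peaks lie together at 86.49% to 87.65% and the Mthfd2l peaks at 24.29% to 33.55%, inside the main cloud.

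The repeated Mthfd2l peaks had near-identical copies elsewhere. At 95% identity or more over at least 90% of its length, the iOL A peak at -2925 bp had 181 other copies in the genome, 15 of them identical. The iOL A peaks at -4055 and -3822 bp had 195 and 177 such copies, and the OLP A peak at -4393 bp had 109. Of the copies of the -2925 bp peak on assembled chromosomes, 26 of 173 (15%) overlapped a peak in at least 1 sample, 12 in OLP A, 4 in OLP B, 10 in iOL A and 0 in iOL B. For the peaks at -4055 and -3822 bp the counts were 23 of 186 (12.4%) and 22 of 169 (13.0%), again with 0 in iOL B. Peaks cover 0.0766% of the bases of the chromosomes in OLP A, 0.0468% in OLP B, 0.0617% in iOL A and 0.0335% in iOL B. These are shares of bases in 1 sample, whereas a copy was counted if it shared at least 1 base with a peak in any sample. The copies were also found from the sequences of called peaks. The measures are thus unlike, and no enrichment of the copies was tested.

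The same counts follow for the other Mthfd2l sequences, and the shares were not tested against each other. Of the 103 copies of the OLP A peak at -4393 bp on assembled chromosomes, 0 overlapped a peak in any sample, although it lies in the same repeated run. The OLP A peak at -10885 bp had 58 copies, of which 1 overlapped a peak, in OLP B. The iOL B peak at -22000 bp had 0 other matches at an E value of at most 1e-10. The iOL B peak in intron 6 had 15245 copies, and 427 of the 14938 on assembled chromosomes (2.86%) overlapped a peak in at least 1 sample.

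The core CCNCCC, letters found in GC boxes and CACCC elements, was searched on both strands within 100 bases of each summit, a search in which overlapping matches are counted. It was found at 0 of the 5 Lars2 peaks and at 1 of the 6 Mthfd2l peaks, the OLP A peak at -10885 bp, which holds 1 match. Over all listed peaks it was found at 13.6%. The promoters of both genes, taken from RefSeq (GRCm38.p6) as 250 bases before to 50 after the start, hold 4 matches at Lars2 and 3 at Mthfd2l, and 68.6% of the 32851 promoters in that table hold at least 1. No peak was listed at either promoter. The GC content of the peaks was 49.69% to 50% at Lars2 and 24.48% to 41.95% at Mthfd2l, against a median of 38.19% over all listed peaks.

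Between the stages, the numbers of listed peaks differed by no more than the spread between replicates at either gene. Lars2 had a mean of 1.5 ± 0.707 listed peaks in OLP and 1 ± 1.41 in iOL, and Mthfd2l had 1 ± 1.41 in OLP and 2 ± 1.41 in iOL (SD, n = 2 samples each). The ranges of the stages overlap for both genes. By letter, Lars2 had 2 listed peaks in OLP A and 2 in iOL A, and 1 in OLP B and 0 in iOL B. Mthfd2l had 2 in OLP A and 3 in iOL A, and 0 in OLP B and 1 in iOL B, so that iOL had 1 more than OLP under each letter, a difference that was not tested. At the Lars2 site, 3 of the 3 OLP peaks had a peak of the second OLP replicate at most 500 bp away, and 0 of the 2 iOL peaks had one in the other iOL replicate. The 3 OLP peaks are 1 site, since both OLP A peaks were matched with the only OLP B peak, and their count was not tested. Among all listed peaks, a peak of the other replicate was as near for 20.9% in OLP A, 34.1% in OLP B, 25.9% in iOL A and 45.3% in iOL B. At Mthfd2l it was so for 0 of the 6 peaks. By gene, 23.7% of the genes listed in OLP and 26.7% of those listed in iOL were listed in both replicates of the stage, and Lars2 in OLP and Mthfd2l in iOL were such genes. The Mthfd2l peaks of the iOL replicates were at different sites, at least 17736 bp apart. The only iOL B peak, at -22000 bp, lies outside the window of -15 kb to +5 kb that the paper compared. Within that window, Mthfd2l was listed in iOL A but not in iOL B. Across the stages, 4 of the 5 Lars2 peaks and 3 of the 6 Mthfd2l peaks had a same-letter peak at most 500 bp away. In each case this was between OLP A and iOL A, the 2 longest lists. The 4 Lars2 peaks are 1 site. The same share over all listed peaks is not given here, so nothing is read from these counts.

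Several listed peaks at 1 gene were less common than a single one. Of the listed genes, 8.36% had 5 or more listed peaks over the 4 samples and 19.0% had 2 or more in 1 sample, as both genes did. As the genes were chosen for having several peaks, nothing is read from these shares. More listed peaks than Mthfd2l were found at 129 genes, and more than Lars2 at 191.

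Lists of other genes for mitochondrial aminoacylation and for folate one-carbon metabolism were read in the same way. Of the 22 others in the first list, only Tars2, the threonyl-tRNA synthetase, had a listed peak, of 7 tags at -42301 bp in iOL A. Most products of this list load amino acids onto mitochondrial tRNAs, and Pet112 among the others is not in the annotation. Of the 27 others in the folate list, which covers mitochondrial and cytosolic steps and transport, 4 had one. Dld, the dihydrolipoamide dehydrogenase that also serves the glycine cleavage system, had 3, of 8 and 7 tags at -9041 and -10587 bp in OLP A and of 16 tags at -9050 bp in iOL B. Mthfd1, the cytosolic enzyme related to Mthfd2l, had 1 of 7 tags at -31616 bp in iOL A. Mtrr, the methionine synthase reductase, had 1 of 9 tags at -35516 bp in OLP A, with the highest score among these genes (100.26). Slc46a1, the proton-coupled folate transporter, had 1 of 7 tags at -11745 bp in OLP A. None of these 5 genes was listed in both replicates of a stage. A listed peak in any sample was found at 15% of the 22238 protein-coding gene symbols of the reference annotation, so neither list stood above that share.

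The genes whose numbers of listed peaks over the 4 samples were most like those of Lars2 were Scgb2b26, Zc2hc1a, Gm2030, Gm8300 and Sp140, each with 2, 1, 2 and 0 peaks in OLP A, OLP B, iOL A and iOL B and so at a Euclidean distance of 0. Those most like Mthfd2l were Olfr46, Tspyl5 and Gm10375, each with 2, 0, 3 and 1 peaks, followed by Zfy2 and Pde7a at a distance of 1. The median share of repeated stretches in the peaks of these 10 genes was 91.2% to 100%. Among the next protein-coding genes along the chromosomes, Cdcp1 and Tmem158 upstream of Lars2, Sacm1l downstream of it and Cxcl2 upstream of Mthfd2l had 0 listed peaks. Limd1 had the 2 peaks of the Lars2 3′ UTR, Cxcl1 the OLP A peak and Epgn the iOL B peak given above. Ereg, the epiregulin gene after Epgn, had a peak in OLP B and in iOL A.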

How the data were processed

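Peaks were analysed in the 4 Klf6 ChIP samples. According to the paper's methods, the authors kept reads of high quality, mapped them onto mm9 by Bowtie2, called peaks by MACS against input and assigned RefSeq start sites. The deposited lists are separate for each ChIP sample. The MACS version is not given in the sources used here. The deposited tags are raw counts per peak, the deposited score is 10 times -log10 of the MACS p-value, the deposited fold enrichment is a linear ratio and the deposited FDR is in percent. Distances in bp are the authors'.

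Members were the peaks whose gene column holds Lars2 or Mthfd2l. The members and gene lists were chosen with earlier results of these data known. Peaks at most 500 bp apart were joined into sites. Gene parts come from GENCODE on the same build (NCBIM37), on which 0 peaks pass a chromosome end. Repeated stretches (32 bases, 50 as an alternative) were counted over the whole genome, including contigs not placed on a chromosome, and copies were searched with BLAST 2.17.0. Every peak of the 2 genes is described. Other genes named are members of the 2 pathway lists with a listed peak, the 5 genes with the nearest numbers of peaks (ties by summed tags) and the 2 neighbouring protein-coding genes on each side. In the aminoacylation list, 22 of 23 symbols were in the annotation. Counting of stretches and joining of peaks were checked on simulated data and recovered 50 of 50 planted repeats and 300 of 300 gaps. Tags in peaks ran from 105081 (iOL B) to 152149 (OLP A), and total reads per sample are not given in the sources used here, so precision is limited by the 7 to 14 tags of a listed peak. No test was run, since the listed peaks chose the genes. Alternatives were stricter limits on tags, score and FDR, a narrower window, other gaps, each sample left out, longer stretches and other motif windows. Python 3.11.15, numpy 2.4.6, pandas 2.3.3, numba 0.67.0 and matplotlib 3.10.9 were used.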

Additional observations from a re-analysis of the deposited data

How the results depend on the processing

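Of 70 values computed under alternatives, 50 moved by no more than 1.5 times (counts) or the spread between samples (shares). A minimum of 10 tags left 1 Lars2 peak and 0 Lars2 sites with both replicates of a stage, and 2 Mthfd2l peaks at 2 sites. A score of at least 50 left 3 Lars2 peaks with 0 such sites, and 1 Mthfd2l peak at 1 site. A score of at least 100 left 0 peaks and 0 sites at both genes. A window of -15 kb to +5 kb left 5 Lars2 peaks at 1 site, and 5 Mthfd2l peaks at 3 sites. When peaks had to share at least 1 base, the Lars2 site split into 2. Without 1 sample at a time, the Lars2 peaks numbered 3 to 5 and the Mthfd2l peaks 3 to 6 (at 3 to 4 sites), each lowest without iOL replicate A (Lars2 also without OLP replicate A), and the Lars2 sites with both replicates of a stage numbered 0 to 1, with 0 without either OLP replicate. In stretches of 50 bases, the median repeated share of the Lars2 peaks was 94.55% against 100%. The fewer peaks follow from the limits themselves. The limit of 10 tags lies above the median of 8 tags of the listed peaks in OLP A and in iOL A. It removes no peak of iOL B, where the lowest count is 10. The shares of all listed peaks left by these limits are not given here, so nothing on these genes is read from the losses. The low tag counts limit every peak here. No paired analysis was possible because the listed peaks chose the genes, which leaves no valid test of their counts, paired or unpaired. No test was run. The counts by letter given above are untested values.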

Other observations

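Outside the listed range of Mthfd2l, a place 103.1 kb upstream of its start (chr5:91257059-91257198 in OLP A) had a peak in 3 of the 4 samples, with 10 tags for OLP A, 15 for OLP B and 11 for iOL B and no gene in the lists. Between 84% and 85.45% of its stretches of 32 bases are repeated in the genome. Further downstream, the Ereg peaks of OLP B (10 tags) and iOL A (11 tags) lay at the same place, 128.3 kb from the Mthfd2l start, with 100% of their stretches repeated.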
